A study of Mus musculus with 6 samples.

Results

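The synaptic adhesion genes Nrxn2, Nrxn3, Nlgn1, Nlgn2, Nlgn3, Lrrtm1, Lrrtm2 and Lrrtm3 were taken from the isoform count table of mouse hippocampus by the gene part of each transcript name, which gave 8 of 53354 gene symbols and 52 of 133944 isoforms. RNA-seq was made from the hippocampi of 3 N-cre mice (control) and 3 N-cre;Fox1 mice, all C57BL/6 and 3 months old, with 1 library per animal. Both groups carried Nes-cre, in which the nestin promoter drives Cre in neural progenitors. The N-cre;Fox1 mice also carried 1 copy of an Rbfox1 cDNA at the Gt(ROSA)26Sor locus, which the CAG promoter expresses once Cre has removed a loxP-flanked stop cassette. This allele was made in embryonic stem cells of a 129 strain and backcrossed to C57BL/6J. Rbfox1 is an RNA binding protein that regulates splicing and the stability of neuronal mRNAs, and the libraries address which isoforms differ when its level is raised. Summed over its isoforms, Rbfox1 itself had 15286, 14456 and 14698 normalized counts, which are RSEM's expected counts scaled to the mean effective library size, in N-cre and 15939, 13571 and 15283 in N-cre;Fox1 mice, so that the groups overlapped. This sum did not tell the genotypes apart, and the genotypes are given as labelled.

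Neurexins are presynaptic membrane proteins that reach across the synaptic cleft and bind postsynaptic partners, among them the neuroligins and the leucine-rich repeat proteins of the LRRTM family. Each neurexin gene has a promoter for a long alpha form, which holds many LNS and EGF-like domains, and an internal promoter for a short beta form with a single LNS domain. Alternative exons at a few conserved splice sites change which partner is bound. LRRTM1 and LRRTM2 bind neurexins without the insert at splice site 4, and cerebellins bind those with it. Neuroligins carry inserts of their own at sites A and B. Neuroligin-1 acts mainly at excitatory synapses, neuroligin-2 at inhibitory synapses, neuroligin-3 at both, and LRRTM proteins at excitatory synapses.

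The short coding inserts at these sites are shown because the isoforms of the neurexins and neuroligins differ by them. All coordinates are those of GRCm38 (mm10), and the sequences were read from its GENCODE transcripts, 5′ to 3′ on the strand of the gene. Capitals mark the insert and lower case the neighbouring 12 bases of the transcript on each side.
Nrxn3 splice site 4, chr12:90199147-90199236, + strand: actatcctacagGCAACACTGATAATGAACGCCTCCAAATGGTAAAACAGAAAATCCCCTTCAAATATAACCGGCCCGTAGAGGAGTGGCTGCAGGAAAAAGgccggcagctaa
Nlgn1 site A, chr3:25920178-25920237, - strand: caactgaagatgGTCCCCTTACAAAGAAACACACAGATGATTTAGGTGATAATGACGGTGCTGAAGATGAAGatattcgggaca
Nlgn2 site A, chr11:69830563-69830613, - strand: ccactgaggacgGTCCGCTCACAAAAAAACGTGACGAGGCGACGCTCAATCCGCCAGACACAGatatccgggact
Nlgn3 site A, downstream exon, chrX:101307075-101307134, + strand: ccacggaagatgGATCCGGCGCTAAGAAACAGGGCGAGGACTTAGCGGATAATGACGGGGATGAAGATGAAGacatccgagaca
Nlgn1 site B, chr3:25439865-25439891, - strand: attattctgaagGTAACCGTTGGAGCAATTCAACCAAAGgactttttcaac
The splice site 4 exon is 90 nt long. At site A, the 60 nt exons of Nlgn1 and Nlgn3 were identical at 43 positions, or 71.7%, and the Nlgn2 exon is 51 nt. Nlgn3 has a further 60 nt exon upstream at this site, which its isoform Nlgn3-206 holds and which had inclusion values of 0% to 2.39% in the 6 mice. All of these inserts have lengths that are multiples of 3. The Rbfox motif was searched in exon sequence only, and the introns beside the exons were not read. The Rbfox motif GCATG and its reverse complement CATGC were not found in any of these 5 inserts; on the transcript strand it was present in 1 of the 17 cassette exons of up to 100 nt of these genes (5.88%) and in 5.46% of the 4705 such exons of all genes.

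The expected counts summed to 40463587 to 62141336 per mouse, of which 43065 to 67127 fell on the 8 genes. General neuronal markers were present in every library, with summed normalized counts of 491659 to 516782 (N-cre) and 461363 to 510683 (N-cre;Fox1) over 7 genes. N-cre replicate 3 and N-cre;Fox1 replicate 2 stood apart from the others by their choroid plexus markers (Ttr, Folr1 and Kl), which summed to 116145 and 261438 normalized counts against 1333 to 1790 in the other 4 libraries. N-cre;Fox1 replicate 2 also differed most from the other mice of its group over all genes. The sum of 5 astrocyte markers was 77968 to 79156 (N-cre) and 82516 to 93303 (N-cre;Fox1) without overlap, 3 of the 5 markers having an unadjusted and 0 an adjusted p under 0.05 in edgeR. The sums for hippocampal fields, oligodendrocytes and their precursors, microglia, endothelium, and thalamus and striatum overlapped. The part of the astrocyte and choroid plexus markers in the results was not tested beyond the values without the choroid plexus libraries. In bulk tissue, fewer cells of a type and less RNA per cell cannot be told apart. The replicates numbered 1 had Xist counts of 27387 and 22347, as in females, and the other 4 mice 17 to 22.

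In TPM, which divides the counts by annotated transcript length and scales each library to the same total, Nrxn2 had the highest mean level of the 8 genes and Lrrtm3 the lowest. The mean over 6 mice was 165 TPM for Nrxn2, 133 for Nlgn2, 84.9 for Lrrtm1, 67.8 for Nrxn3, 45.3 for Nlgn3, 37.4 for Nlgn1, 21 for Lrrtm2 and 11.3 for Lrrtm3. Neighbours in this order did not overlap over the 6 mice: the narrowest gaps in TPM were between Nlgn3 at 42 to 47.3 and Nlgn1 at 36.5 to 38.2, and between Lrrtm1 at 76.5 to 89 and Nrxn3 at 63.8 to 71.6. The order was Nlgn2 above Nlgn3 and Nlgn1 among the neuroligins, and Lrrtm1 above Lrrtm2 and Lrrtm3 among the LRRTMs. These levels count every annotated transcript, and short ones weigh more per length. The 1852 nt isoform Nlgn3-203 made up a mean of 35.2% of Nlgn3 per length. Transcripts without a coding sequence made up 16.3% to 19.9% of Nrxn2. The order without such transcripts was not tested.

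None of the 8 gene sums differed between the genotypes at an adjusted p under 0.05, and for each the 95% interval of the fold change lay between 0.831 and 1.11. The quasi-likelihood test of edgeR, adjusted by Benjamini and Hochberg's method, called 0 of the 8 members, where it called 0.0264% of the 18924 genes tested, and DESeq2 and limma-voom called 0 as well. The lowest adjusted p among the members was 0.782 in edgeR. At an unadjusted p under 0.05 there was 1 member, Nlgn3, beside 6.19% of all genes. In 0 of the 8 genes did the normalized counts of the genotypes separate, against 12.2% of all genes. The median log2 fold change was -0.02 over the members, with 6 below and 2 above 0, and -0.00 over all genes tested.

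**Figure D1:**
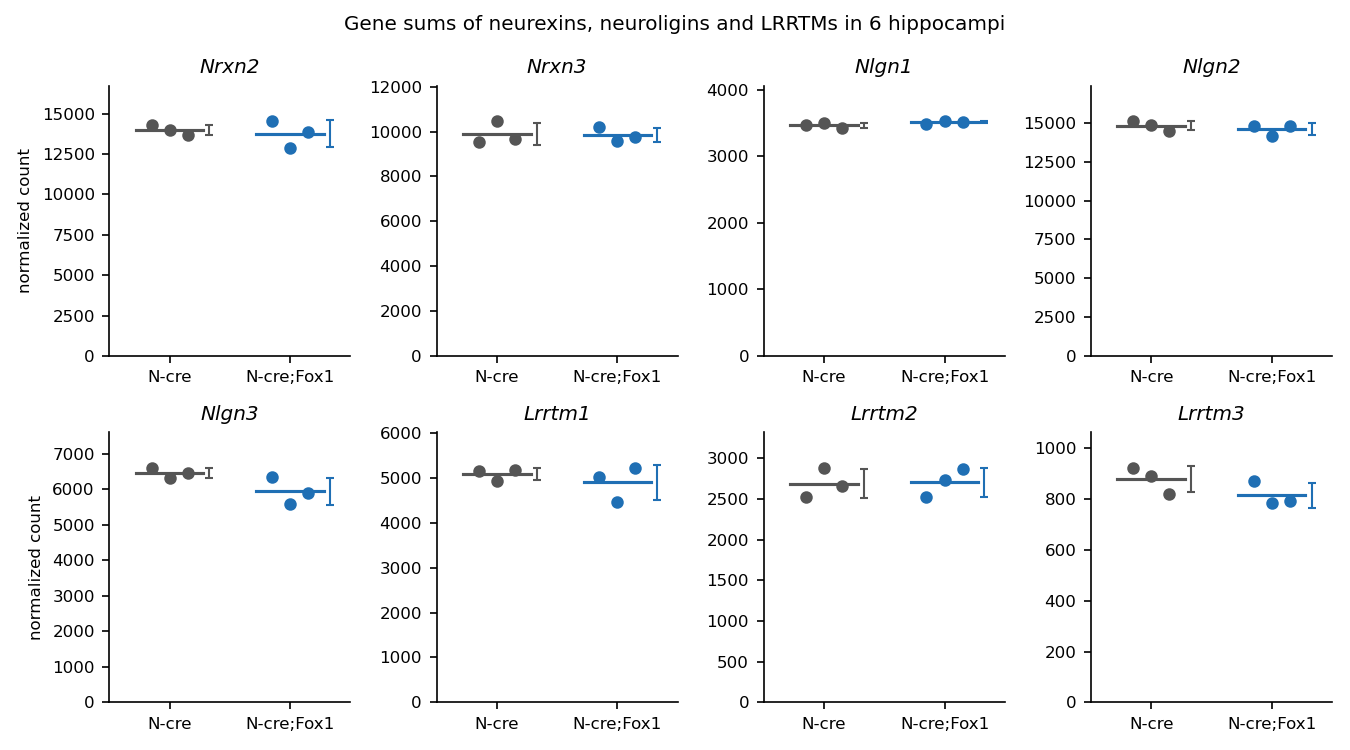
Normalized counts (y axis) of each gene in 3 N-cre (grey) and 3 N-cre;Fox1 (blue) hippocampi; points are mice in the order of their replicate numbers, lines group means and bars SD. The groups overlap in all 8 genes; in Nlgn3 the N-cre;Fox1 mice reach down to 5584 and the N-cre mice to 6316.

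Nrxn2 (ENSMUSG00000033768.17, chr19:6418731-6544169) and Nrxn3 (ENSMUSG00000066392.11, chr12:88722876-90334935) encode neurexin-2 and neurexin-3. Nrxn2 had normalized counts of 14291, 13955 and 13678 in N-cre and 14528, 12874 and 13871 in N-cre;Fox1 replicates 1, 2 and 3. The N-cre;Fox1 mice held both the highest and the lowest value, and the log2 fold change was -0.02 (standard error, SE, 0.0459). Nrxn3 had 9556, 10464 and 9651 in N-cre and 10211, 9585 and 9778 in N-cre;Fox1 mice, with a log2 fold change of -0.00 (SE 0.0433).

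By RSEM's division of reads between annotated transcripts, the neurexins differed in the forms they used. The shares of expected counts of these forms overlapped between the genotypes. Long forms are here transcripts of more than 1000 codons, a class set by coding length alone, decay targets included. They held 53.1%, 51.9% and 50% of the Nrxn2 counts in N-cre and 53.4%, 50.1% and 50% in N-cre;Fox1 mice. Short forms of Nrxn2 held 43.3%, 43.6% and 45.5% in N-cre and 42.3%, 45.7% and 46.4% in N-cre;Fox1 mice. Nearly all of this came from Nrxn2-202, a transcript of 660 codons that is the beta form. The long Nrxn2-201 and Nrxn2-204 and the short Nrxn2-202 each have 0 bases that no other Nrxn2 isoform holds. Their split rests on how RSEM divided shared reads. Nrxn2-204 is annotated to end at 6532278 and Nrxn2-202 at 6533217. How much Nrxn2 mRNA is of each form was not tested. Per length the order turned, the long forms of Nrxn2 being 33.5% ± 1.5 in N-cre and 33.5% ± 1.47 in N-cre;Fox1 mice. The short forms were 48.3% ± 1.39 of the gene in N-cre and 49.2% ± 1.75 in N-cre;Fox1 mice (each SD, n = 3), a difference of 0.891 points with an exact two-sided permutation p of 0.5. With 3 against 3 mice the smallest p such a test can give is 0.1. In Nrxn3, by contrast with Nrxn2, long forms held 93.9% to 95.6% of the counts in the 6 mice and short forms 2.99% to 4.01%. Per length the long forms of Nrxn3 were 82.3% to 87.9%. They include Nrxn3-213 (1009 codons) and Nrxn3-201 (1100 codons), at mean shares of 16.7% and 2.61% of the counts. Both lack a 1390 nt exon of Nrxn3-205 (1571 codons), so that the class is not alpha length throughout. Nrxn3 transcripts without a coding sequence were the exception in not overlapping on the scale of counts per length, at 7.42%, 7.21% and 5.99% in N-cre and 9.98%, 10.2% and 8.49% in N-cre;Fox1 mice (exact permutation p = 0.1). Their shares of the expected counts did overlap, at 1.25% to 2.04% and 1.98% to 2.43%.

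Within the long forms of Nrxn2, Nrxn2-204 (1640 codons, without the splice site 4 insert) held a mean of 32.8% of the counts and Nrxn2-201 (1503 codons, with the insert) 16.6%. The most abundant Nrxn3 isoform was Nrxn3-205 (1571 codons), at 69.4%, 66.7% and 70.9% in N-cre and 65.9%, 64.5% and 67% in N-cre;Fox1 mice. These shares overlapped through N-cre replicate 2, and the normalized count of Nrxn3-205 had a log2 fold change of -0.07 (SE 0.0426). Nrxn3-213, which is annotated as a target of nonsense-mediated decay, followed at a mean share of 16.7%.

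At splice site 4 the inclusion of the 90 nt exon overlapped between the genotypes in both neurexins. Inclusion was computed as the counts per length of the isoforms with the exon over those with it or skipping it. For Nrxn2 it was 70.7%, 71.6% and 72.7% in N-cre and 70.1%, 72.7% and 71.9% in N-cre;Fox1 mice, a difference of -0.112 points (exact permutation p = 1). For Nrxn3 it was 74%, 75.7% and 80.9% in N-cre and 74.9%, 75.8% and 76.6% in N-cre;Fox1 mice, a difference of -1.11 points (exact permutation p = 0.9). With 1 mouse left out this difference was -2.56 to 0.915 in Nrxn3, turning without N-cre replicate 3, and -0.698 to 0.622 in Nrxn2, turning without N-cre replicate 3 or N-cre;Fox1 replicate 1; without the choroid plexus libraries it was 0.881 and -0.19. In Nrxn2 the insert came largely from the beta form Nrxn2-202, which carries it, and the skipping from the alpha form Nrxn2-204, while in Nrxn3 the skipping came from Nrxn3-213 and the short Nrxn3-203. RSEM assigns reads to whole annotated isoforms, so that an inclusion value follows the isoforms an exon is annotated in and is not a count of junction reads. Khdrbs1, Khdrbs2 and Khdrbs3, which encode the STAR-family proteins that promote skipping of this exon, had log2 fold changes of -0.04, -0.00 and 0.02 with standard errors of 0.0424, 0.0932 and 0.0362.

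Of the other alternative exons of Nrxn2, a 72 nt exon of the alpha form (chr19:6450528-6450599, + strand) did not overlap between the genotypes.
Nrxn2 72 nt exon: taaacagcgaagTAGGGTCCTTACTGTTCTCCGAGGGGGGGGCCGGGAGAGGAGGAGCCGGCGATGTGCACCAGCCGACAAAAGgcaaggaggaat
Its inclusion was 43.6%, 43.8% and 46.3% in N-cre and 42.7%, 42.3% and 41.1% in N-cre;Fox1 mice, a difference of -2.52 points (exact permutation p = 0.1). Across all genes, 11.7% of 9891 cassette exons did not overlap, and 3 of the 21 cassette exons of these genes did so. A 24 nt exon of Nrxn2 at splice site 2 was included at 66% to 70.6% (N-cre) and 69.1% to 71% (N-cre;Fox1), its longer 45 nt version at 5.96% to 9.85% and 5.77% to 9.99%, and a 27 nt exon at 34.4% to 34.9% and 32.3% to 34.4%. Further upstream, a 30 nt exon was included at 80.6% to 84.1% and 83.4% to 85.9%. The mean of this exon was 83.9% from counts per length and 96.9% from expected counts. In Nrxn3, 2 exons of 27 nt each had mean inclusions of 91.3% and 26.9% over the 6 mice, and the exons of 1390, 18 and 30 nt that Nrxn3-213 skips had means of 76.7% to 77.3%. A 706 nt exon of Nrxn3-208 and Nrxn3-213 was included at 27.5%, 29.7% and 26.3% in N-cre and 29.7%, 31% and 29.7% in N-cre;Fox1 mice, which touched at N-cre replicate 2. The third exon without overlap, 62 nt of Nrxn2-211 (1.64% to 1.93% in N-cre, 2.03% to 4.05% in N-cre;Fox1), rests on 12 to 31.5 normalized counts per mouse of a transcript without a coding sequence.

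**Figure D2:**
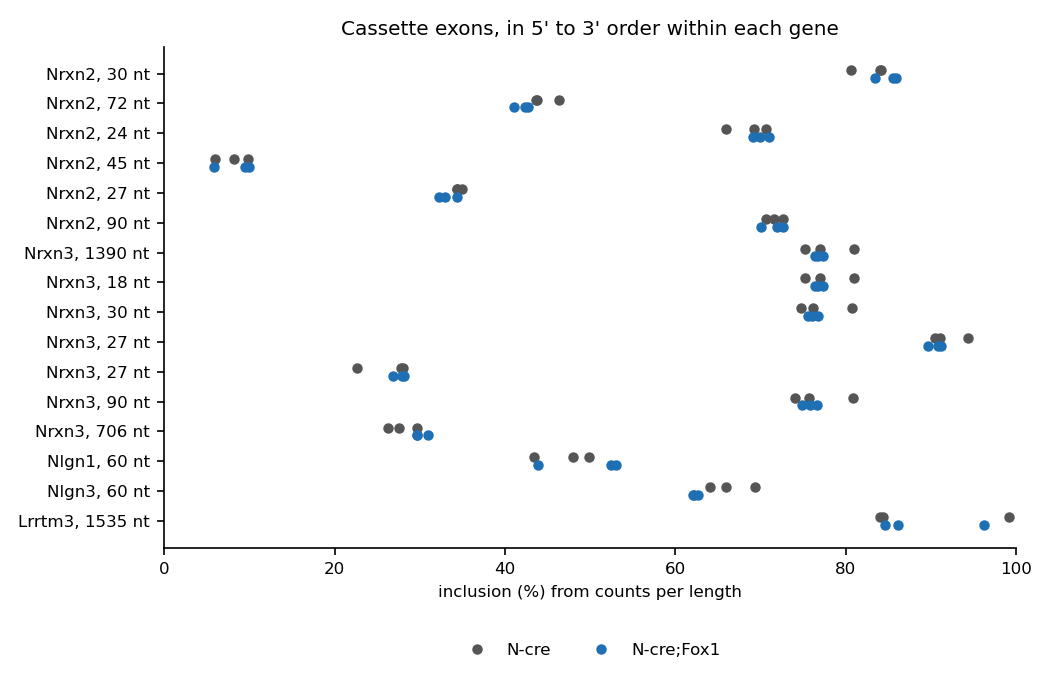
Inclusion in percent (x axis) of the 16 cassette exons with a mean from 5% to 95%, 1 row per exon, 1 point per mouse (grey N-cre, blue N-cre;Fox1). The points of both genotypes interleave in each row except the Nrxn2 72 nt exon and the Nlgn3 60 nt exon, in which all 3 N-cre;Fox1 mice lie lower.

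Nlgn1 (ENSMUSG00000063887.13, chr3:25426215-26332460), the gene of neuroligin-1, was nearly constant as a sum while the shares of 2 of its 5 isoforms did not overlap, which held for 5 of 42 isoforms over all members (11.9%) and for 11.2% of 42441 isoforms of all genes. The gene had normalized counts of 3476, 3498 and 3421 in N-cre and 3491, 3526 and 3519 in N-cre;Fox1 mice, with a log2 fold change of 0.02 and a 95% interval from -0.05 to 0.09. Nlgn1-202 held 22.2%, 24.8% and 28.3% of the gene's counts in N-cre and 22%, 16.6% and 17.2% in N-cre;Fox1 mice. All 3 shares were lower in N-cre;Fox1 mice, although N-cre;Fox1 replicate 1 lay next to N-cre replicate 1. Nlgn1-203 showed the opposite pattern, at 19.1%, 19.2% and 19.3% in N-cre and 24.2%, 21.2% and 20.7% in N-cre;Fox1 mice. The main isoform, Nlgn1-201, held 46.7%, 46.7% and 40.9% in N-cre and 42.2%, 49.4% and 50.6% in N-cre;Fox1 mice, with overlap.

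The normalized counts of Nlgn1-202 were 772, 868 and 968 in N-cre and 766, 586 and 603 in N-cre;Fox1 mice, with a log2 fold change of -0.42 (SE 0.137) and an unadjusted p of 0.0215. Those of Nlgn1-203 were 666, 674 and 659 in N-cre and 845, 748 and 726 in N-cre;Fox1 mice, with a log2 fold change of 0.21 (SE 0.0806) and an unadjusted p of 0.0358. Neither passed: the adjusted p over all isoforms was 0.99 for both in edgeR. In the test of an isoform against the other isoforms of its gene, edgeR's diffSpliceDGE, Nlgn1-202 had a relative log2 change of -0.43 with an unadjusted p of 0.0577 and an adjusted p of 1. limma's diffSplice gave Nlgn1-202 an adjusted p of 0.0834, the lowest of any member isoform with that tool. Without the choroid plexus libraries the log2 fold change of Nlgn1-202 was -0.26 with an unadjusted p of 0.161.

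Nlgn1-202 and Nlgn1-203 encode products of equal length, 814 codons, and both lack the inserts at sites A and B, which Nlgn1-201 and Nlgn1-205 (843 codons) carry together. They differ in the first exons and in the end of the 3′ UTR, and Nlgn1-202 has 0 and Nlgn1-203 only 43 bases that no other Nlgn1 isoform holds. Summed, Nlgn1-202 and Nlgn1-203 held 41.3%, 44% and 47.6% of the gene in N-cre and 46.2%, 37.8% and 37.8% in N-cre;Fox1 mice, with overlap (exact permutation p = 0.3). Inclusion of the site A exon was 49.9%, 48% and 43.4% in N-cre and 43.9%, 52.4% and 53% in N-cre;Fox1 mice, a difference of 2.66 points (exact permutation p = 0.5), which was 0.8 to 5.61 points with 1 mouse left out and -0.536 without the choroid plexus libraries. Since the annotated isoforms that span these sites carry either both inserts or neither, the site B insert has the same value and the sites could not be told apart.

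**Figure D3:**
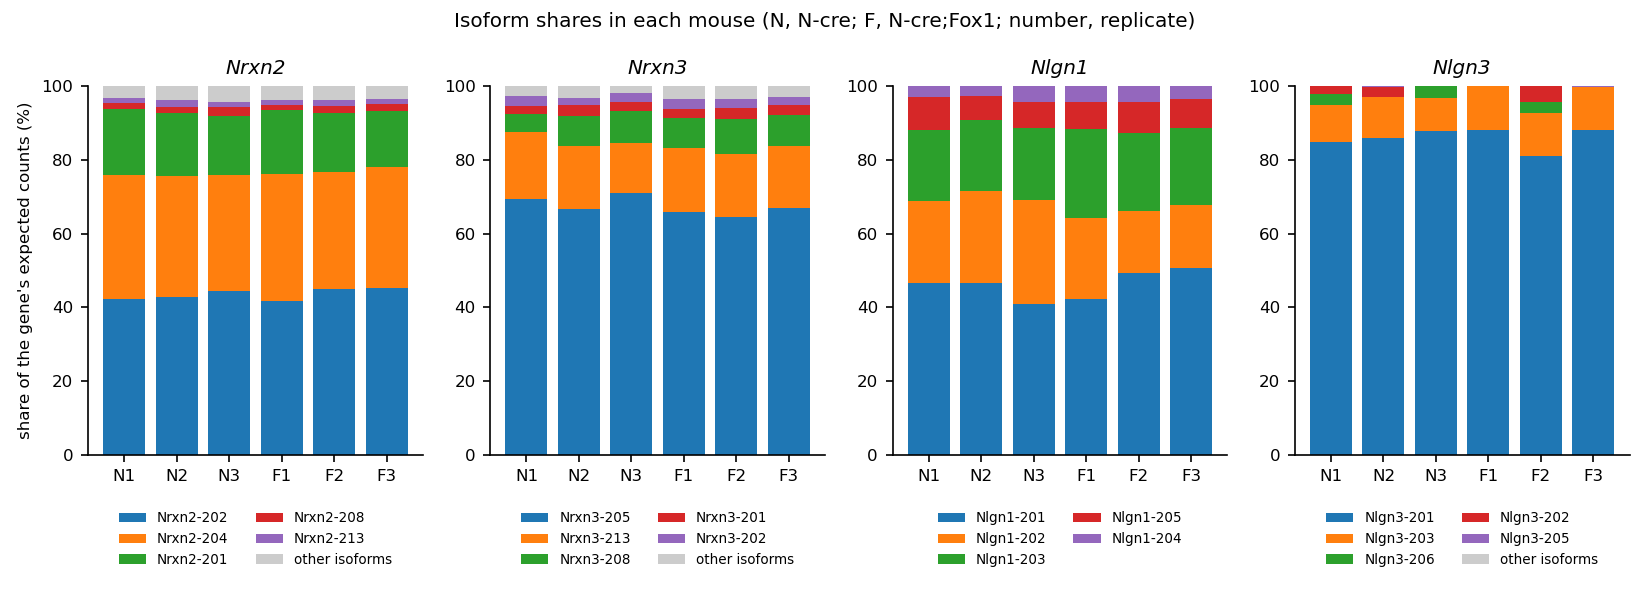
Share of the gene's expected counts (y axis, percent) of the 5 most abundant isoforms of Nrxn2, Nrxn3, Nlgn1 and Nlgn3 in each mouse (N1 to N3, N-cre; F1 to F3, N-cre;Fox1; grey, other isoforms). Nlgn1-202 (orange) takes 22.2% to 28.3% (N-cre) and 16.6% to 22% (N-cre;Fox1), and Nlgn3-202 and Nlgn3-206 are missing from some bars.

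Nlgn2 (ENSMUSG00000051790.15, chr11:69823122-69837784), the neuroligin of inhibitory synapses, had 15112, 14896 and 14489 normalized counts in N-cre and 14815, 14165 and 14805 in N-cre;Fox1 mice, which overlapped. The log2 fold change, -0.02, had a 95% interval from -0.10 to 0.06. Its counts were divided between Nlgn2-201 and Nlgn2-202, which hold the same 836 codons behind different first exons, at mean shares of 55.2% and 43.8%. Nlgn2-201 held 53.5%, 58% and 57.6% in N-cre and 51.2%, 57.7% and 53.3% in N-cre;Fox1 mice, which overlapped. The site A exon was included at 94.7% to 96.6% (N-cre) and 94.6% to 95.9% (N-cre;Fox1). The mean of this exon was 95.5% from counts per length and 99.3% from expected counts. Only the 784 nt Nlgn2-203 skips it.

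Nlgn3 (ENSMUSG00000031302.16, chrX:101299168-101325963) was the 1 member with an unadjusted p under 0.05 as a gene sum. It had 6608, 6316 and 6458 normalized counts in N-cre and 6342, 5584 and 5907 in N-cre;Fox1 mice. The groups overlapped by N-cre;Fox1 replicate 1 alone. The log2 fold change was -0.12 (SE 0.0471) with a 95% interval from -0.22 to -0.02, at an unadjusted p of 0.0278 and an adjusted p of 0.782 in edgeR. Within the mice with Xist, N-cre;Fox1 was at 6342 and N-cre at 6608, and within those without it the N-cre;Fox1 mice (5584 and 5907) were both below the N-cre mice (6316 and 6458). Without N-cre;Fox1 replicate 2 the log2 fold change was -0.08 with an unadjusted p of 0.0916, and without both choroid plexus libraries -0.08 with an unadjusted p of 0.129.

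Nlgn3 shares exons with Gm21986, annotated as a non-coding readthrough transcript, which begins upstream on the same strand and holds 3823 of the 9271 exon bases of Nlgn3 (41.2%). Gm21986 was looked up after the values of Nlgn3 were seen. It had 457, 365 and 425 normalized counts in N-cre and 618, 609 and 886 in N-cre;Fox1 mice, higher in 3 of 3 mice without overlap, with a log2 fold change of 0.76 (SE 0.162), an unadjusted p of 0.00176 and an adjusted p of 0.564 in edgeR. When the counts of Gm21986 were added to Nlgn3, the sum was 7064, 6681 and 6883 in N-cre and 6960, 6193 and 6792 in N-cre;Fox1 mice. For this sum the log2 fold change was -0.05 (SE 0.0469) with an unadjusted p of 0.321. How RSEM divided shared reads between both genes was not tested.

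**Figure D4:**
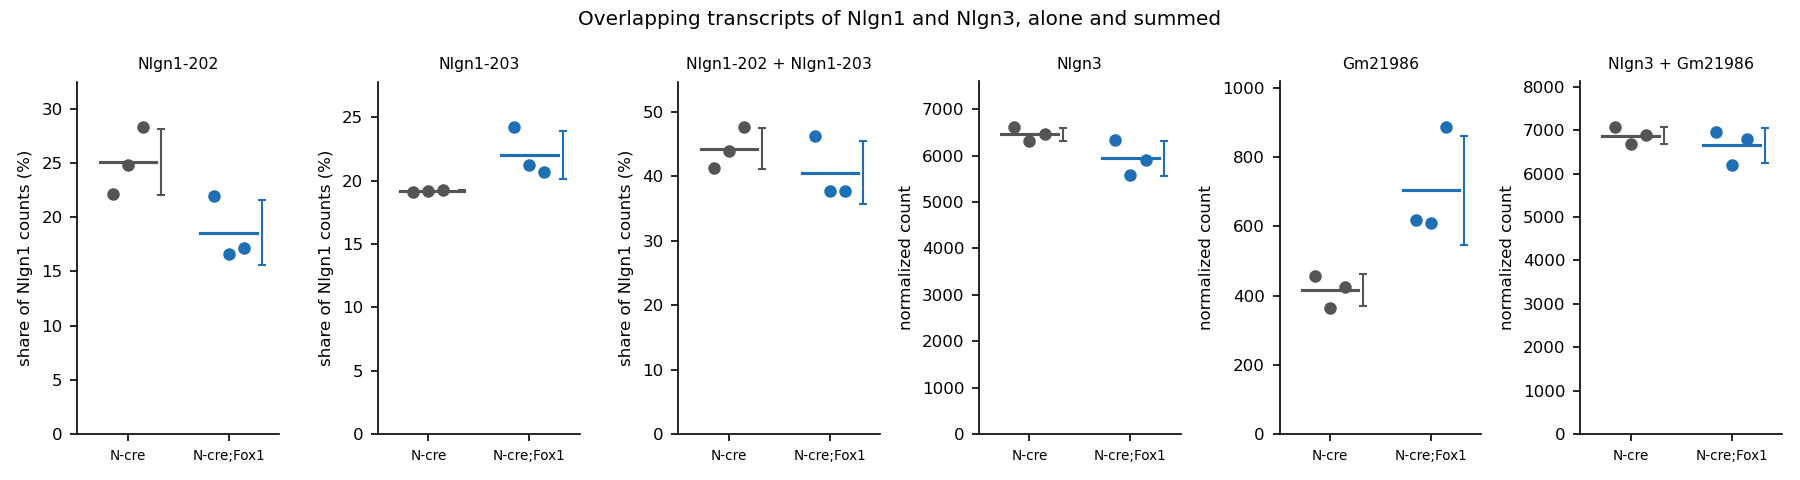
Transcripts that share exons, alone and summed: shares of Nlgn1 counts in percent (3 left panels) and normalized counts (3 right panels) for 3 N-cre (grey) and 3 N-cre;Fox1 (blue) mice; lines are means and bars SD. Nlgn1-202 and Nlgn1-203 separate in opposite directions and their sum overlaps, and Gm21986 has a mean of 704 in N-cre;Fox1 against 416 in N-cre mice, while Nlgn3 and the sum of both overlap.

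Among Nlgn3 isoforms, Nlgn3-201 (825 codons, with the site A exon) had a mean share of 86% and Nlgn3-203, an incomplete model of 510 codons that skips this exon, 10.8%. The share of Nlgn3-203 was 10.2%, 10.9% and 8.84% in N-cre and 11.8%, 11.5% and 11.7% in N-cre;Fox1 mice, higher in 3 of 3 mice, while its normalized counts overlapped (571 to 690 and 645 to 746). Inclusion of the site A exon was 65.9%, 64.1% and 69.3% in N-cre and 62.1%, 62.7% and 62.2% in N-cre;Fox1 mice. The difference was -4.09 points (exact permutation p = 0.1), and -1.70 points when expected counts were used in place of counts per length. The mean of this exon was 64.4% from counts per length and 89.2% from expected counts. Among isoforms past the filter, only the 1852 nt Nlgn3-203 skips it. Both Nlgn3-201 and Nlgn3-203 have 0 bases that are theirs alone. Nlgn3-202 and Nlgn3-206, named here after their values were seen, were estimated at 0 counts in 3 mice each and at 2.05% to 4.10% and 2.99% to 3.19% of the gene in the other mice. They have only 7 and 60 bases of their own, the 60 of Nlgn3-206 being its upstream site A exon. Whether such a 0 reflects absence or how RSEM divided shared reads was not tested. It is not taken as a limit on the share. Without the choroid plexus libraries, Nlgn3-202 was the 1 member isoform called by diffSpliceDGE (adjusted p = 0.000375). The libraries left out were the N-cre mouse in which it was at 0 and the N-cre;Fox1 mouse with its highest share, 4.10%, and both remaining N-cre;Fox1 mice were at 0.

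Lrrtm1, Lrrtm2 and Lrrtm3, the genes of postsynaptic partners of the neurexins, lie inside the alpha-catenin genes Ctnna2, Ctnna1 and Ctnna3 on the opposite strand, and they share 0 annotated exon bases with them. Lrrtm1 (ENSMUSG00000060780.2, chr6:77242689-77257791) had 5143, 4933 and 5173 normalized counts in N-cre and 5010, 4469 and 5224 in N-cre;Fox1 mice. N-cre;Fox1 replicate 2 was the lowest and replicate 3 the highest of all 6, and the log2 fold change was -0.05 (SE 0.0544). Lrrtm1 is on the chromosome of the transgene, 35.8 Mb from Gt(ROSA)26Sor. Its isoforms Lrrtm1-202, Lrrtm1-203 and Lrrtm1-201 share the same 522 codons, Lrrtm1-201 being annotated as a target of nonsense-mediated decay, and had mean shares of 61.6%, 21.4% and 17%, each overlapping between the genotypes. Lrrtm1-202 and Lrrtm1-203 have 6 and 4 bases of their own, so that their split is uncertain.

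Lrrtm2 (ENSMUSG00000071862.3, chr18:35209003-35215024) has 1 annotated isoform, and had 2526, 2882 and 2653 normalized counts in N-cre and 2519, 2725 and 2871 in N-cre;Fox1 mice. The values of both genotypes interleaved, with a log2 fold change of 0.01 (SE 0.0602). Lrrtm3 (ENSMUSG00000042846.8, chr10:63928472-64090277) was the least abundant member and had the widest interval. It had 924, 893 and 822 normalized counts in N-cre and 871, 784 and 791 in N-cre;Fox1 mice, with a log2 fold change of -0.11 (SE 0.0706) and a 95% interval from -0.27 to 0.05. Lrrtm3-201 (582 codons) held 77.9% to 91.6% of its counts over the 6 mice and the retained intron Lrrtm3-204 7.73% to 20.1%. The only cassette exon of Lrrtm3, 1535 nt long and skipped by the low Lrrtm3-202, was included at 84% to 99.2% (N-cre) and 84.6% to 96.2% (N-cre;Fox1). The mean of this exon was 89.1% from counts per length and 98.3% from expected counts. The host genes Ctnna2, Ctnna1 and Ctnna3 had log2 fold changes of -0.03, 0.04 and -0.18, with standard errors of 0.0395, 0.164 and 0.257. Ctnna1 was highest in the choroid plexus libraries, at 3359 and 3877 normalized counts against 2788 to 2930 in the other mice.

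**Figure D5:**
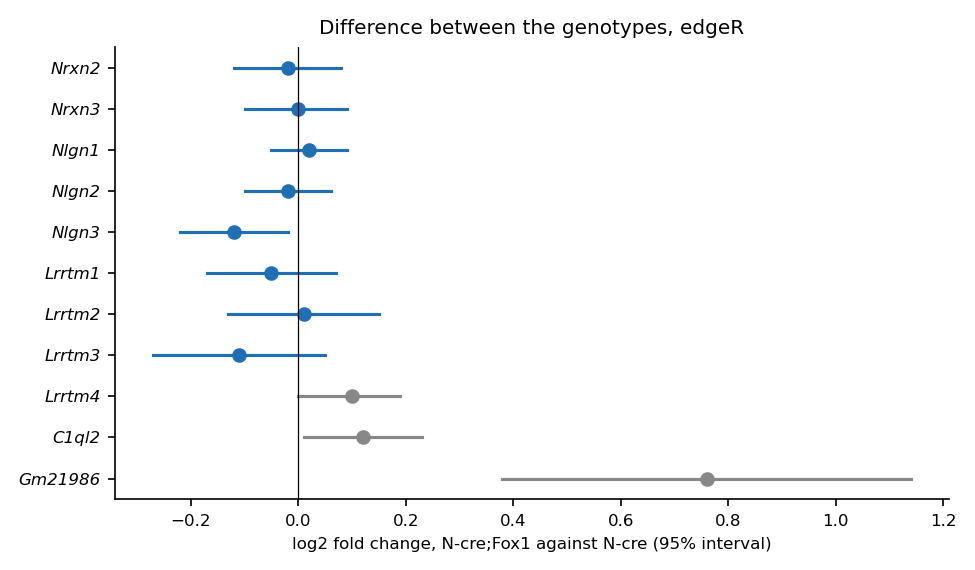
Log2 fold changes of N-cre;Fox1 against N-cre (x axis) with 95% intervals from edgeR for the 8 members (blue) and for Lrrtm4, C1ql2 and Gm21986 (grey). The intervals of 7 members cover 0, that of Nlgn3 runs from -0.22 to -0.02, and Gm21986 lies at 0.76.

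Over all isoforms of these genes, 43 of 52 passed the filter on low counts, and the other 9, of which 4 belong to Nrxn3, had mean shares of at most 0.0785% of their gene. edgeR's quasi-likelihood test called 0 of the 43, where it called 0% of 50556 isoforms, and DESeq2 and limma-voom called 0 of the 43 as well. At an unadjusted p under 0.05 there were 3, Nlgn1-202, Nlgn1-203 and Nrxn2-212, beside 4.78% of all isoforms, and their normalized counts were the 3 that did not overlap, against 11.5% of all isoforms. Nrxn2-212, a retained intron without a coding sequence, had 6.02, 8.3 and 9.15 normalized counts in N-cre and 38.4, 13.7 and 14.3 in N-cre;Fox1 mice, with a log2 fold change of 1.49 (SE 0.555). Its mean share of the gene was 0.107%, and N-cre;Fox1 replicate 1 lay above the other mice; without it the log2 fold change was 0.84.

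Usage within the gene could be tested for 42 isoforms, and diffSpliceDGE called 0 of them, with 0 at an unadjusted p under 0.05, where it called 0.217% of 42441 isoforms and 2.03% had such a p. In limma's diffSplice 0 of the 42 were called, where it called 173 isoforms over all genes, and 4 of the 42 had an unadjusted p under 0.05. The share of all isoforms with such a p in diffSplice was not taken. The 2.03% is from diffSpliceDGE, so that the 4 cannot be set against it. The 5 of the 42 isoforms whose shares did not overlap, 4 being higher and 1 lower under N-cre;Fox1, were Nlgn1-202, Nlgn1-203, Nlgn3-203, Nrxn2-211 and Nrxn2-212.

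Of 33 other genes of the pathway, which bind, cleave, anchor or splice neurexins and neuroligins, edgeR called 0 and 2 had an unadjusted p under 0.05, both higher in N-cre;Fox1 mice, where 6.19% of all genes had such a p. Lrrtm4, the LRRTM that binds heparan sulfate on its partners, had 1898, 1920 and 1825 normalized counts in N-cre and 1955, 2022 and 2053 in N-cre;Fox1 mice, with a log2 fold change of 0.10 and an adjusted p of 0.799 in edgeR, and was the 1 gene of the list whose groups did not overlap, against 12.2% of all genes. C1ql2, a secreted C1q-like protein of mossy fiber synapses, had 2804, 2699 and 2754 in N-cre and 3070, 2752 and 3147 in N-cre;Fox1 mice, with a log2 fold change of 0.12 and an adjusted p of 0.799 in edgeR. The log2 fold changes of the list ran from -0.31 to 0.12 with a median of -0.02. Dlg4, the scaffold of excitatory synapses, and Gphn, that of inhibitory synapses, had -0.03 and -0.02.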

How the data were processed

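Hippocampal RNA (TruSeq Stranded Total RNA, paired-end) was sequenced from 3 N-cre and 3 N-cre;Fox1 mice, grouped by the sample labels, which give each mouse its own animal tag. The authors trimmed reads with Cutadapt 1.18, aligned the trimmed pairs to mm10 by STAR 2.5.2b and deposited expected counts per isoform from RSEM 1.3.0 on GENCODE M16, unnormalized and not whole numbers, because RSEM divides read pairs between isoforms. Its strand setting is not given in the sources used here. EBSeq, which the authors used, was not run.

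Here, expected counts were rounded and, for genes, summed by symbol. Isoforms and genes with low counts were removed (filterByExpr, minimum count 10, total 15), and N-cre;Fox1 was tested against N-cre by edgeR 4.0.16 under R 4.3.3 (TMM, robust quasi-likelihood test, genotype only, Benjamini-Hochberg over all features, threshold 0.05) and diffSpliceDGE. Normalized counts are scaled to the mean effective library size. Shares and inclusion were compared by exact two-sided permutation tests (SciPy 1.17.1). Exons, coding lengths and sequences came from GENCODE M21 (GRCm38), in which 2 of the 52 isoforms have another version. On simulated data the gene and isoform tests recovered most large changes in well-counted features, less often for isoforms, and diffSpliceDGE made more false calls than its threshold allows. Changes as small as those of the member genes were not simulated.

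The 8 genes, the 33 partner genes and all tests were chosen with earlier results of these data known. Named were all 8 genes, isoforms with a mean share of at least 10% or an unadjusted p under 0.05, neurexin length classes, cassette exons with a mean inclusion from 5% to 95%, partner genes with an unadjusted p under 0.05, Khdrbs1, Khdrbs2, Khdrbs3, the host genes and Rbfox1. Alternatives were other normalizations, filters and tools (DESeq2 1.42.0, limma 3.58.1), unrounded counts, a replicate block, an Xist term and each mouse left out. Leaving out the choroid plexus libraries and adding Gm21986 to Nlgn3 were chosen after seeing the data.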

Additional observations from a re-analysis of the deposited data

How the results depend on the processing

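Every setting tried called 0 of the 8 member genes and 0 of their isoforms in the tests of fold change, and in the usage test 1 isoform, Nlgn3-202, was called without the choroid plexus libraries and 0 under the other settings. The numbers of all genes called moved from 5 to 45 without the filter beyond 1 count, to 50 with DESeq2's Wald test and to 11 with the Xist term, and from 2 to 29 with 1 mouse left out. All isoforms called moved from 0 to 10 without the filter, 6 with at least 10 counts in every mouse, 215 with DESeq2 and 1 without rounding, and was 0 to 0 with 1 mouse left out. Isoforms called for usage moved from 92 to 45 with at least 10 counts in every mouse, 173 with limma's diffSplice, 271 without the choroid plexus libraries, and 170 to 199 with 1 mouse left out. The cause of these shifts was not tested.

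Fold changes near 0 changed sign. Without the choroid plexus libraries the log2 fold change was 0.01 for Nrxn2, 0.00 for Nrxn3, 0.02 for Lrrtm1, 0.03 for Nrxn2-202, 0.02 for Nrxn2-204, -0.05 for Nrxn3-213, -0.01 for Nlgn1-201 and -0.01 for Lrrtm2-201. Without the filter it was 0.00 for Nrxn3 and for Nrxn2-202, and with upper quartile normalization -0.00 for Lrrtm2-201. With 1 mouse left out it ranged from -0.06 to 0.03 for Nrxn2, -0.03 to 0.04 for Nrxn3, -0.10 to 0.01 for Lrrtm1, -0.03 to 0.07 for Lrrtm2, -0.03 to 0.03 for Nrxn2-202, -0.09 to 0.07 for Nrxn2-204, -0.06 to 0.14 for Nrxn3-213, -0.02 to 0.12 for Nlgn2-202, -0.05 to 0.18 for Lrrtm1-202, -0.04 to 0.06 for Lrrtm2-201 and -0.06 to 0.48 for Lrrtm3-204. The unadjusted p of Nlgn3 ran from 0.00196, without N-cre;Fox1 replicate 1, to 0.321, with Gm21986 added. Nlgn1-202 stayed between -0.55 and -0.26.

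Of the 42 member isoforms, 5 had shares without overlap, 7 to 10 (16.7% to 23.8%) with 1 mouse left out and 13 (31%) without the choroid plexus libraries, beside 20.4% to 22.8% and 33.7% of all isoforms. Of the 21 member cassette exons, 3 did not overlap, 3 to 6 (14.3% to 28.6%) with 1 mouse left out and 5 (23.8%) without the choroid plexus libraries, beside 20.5% to 22.5% and 33.3% of all cassette exons. Fewer mice make such separation easier.

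The replicate numbers did not pair the mice throughout. Correlations of same-numbered mice were 0.378, -0.0951 and -0.211 for numbers 1, 2 and 3. Among the N-cre mice, that of number 1, and no other, correlated best with its own number. Both mice of number 1 are those with Xist. With the replicate block edgeR called 5 genes, 0 isoforms and, for usage, 64 isoforms, of which 0 were members. Its log2 fold change was -0.12 for Nlgn3, with an unadjusted p of 0.00725, and -0.42 for Nlgn1-202, with an unadjusted p of 0.0558.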

Other observations

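Other annotated genes shared exon bases with the neurexins and neuroligins on the opposite strand. A830092H15Rik shared 1229 of 13422 exon bases of Nlgn1 and had 69.4 to 133 expected counts per mouse, against 2615 to 4048 for Nlgn1. Slc22a12 and Gm14964 shared 682 and 207 of 13812 exon bases of Nrxn2, with 17.7 to 23.2 and 55.5 to 85.8 expected counts per mouse. Gm37980 shared 439 of 12605 exon bases of Nrxn3, with 1.09 to 4.42 expected counts.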
